A study of Mus musculus with 30 samples.

Results

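To define what loss of FoxK1 adds when FoxK2 is already depleted, insulin-stimulated cells depleted of both proteins (DKD) were compared with insulin-stimulated cells depleted of FoxK2 alone (FoxK2 KD). The comparison used 7 of the 30 samples of the series, 3 from DKD and 4 from FoxK2 KD cells, and covered 11368 tested genes of 49089 in the count files. All samples were AML12 cells, an established line of mouse hepatocytes, in which FoxK1, FoxK2 or both had been depleted by transient transfection of siRNA, and Control cells received a non-silencing siRNA. Every culture was serum-starved overnight in medium with BSA, and the groups after insulin then received 100 nM insulin for 6 h, whereas the basal groups were mock treated and carry a time of 0 in their labels. The series thus has 8 groups of 3 or 4 samples: the 4 genotypes (Control, FoxK1 KD, FoxK2 KD, DKD), each at basal and after insulin. A knockdown of this kind leaves part of the transcript in place. The labels do not say whether samples of a group came from separate cultures. The p-values therefore measure only the spread between samples within groups, estimated over all 30 samples in the 8 groups.

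FoxK1 and FoxK2 are forkhead transcription factors that bind DNA through a winged-helix domain and recruit chromatin corepressors. In contrast to the FoxO factors, which leave the nucleus when insulin activates Akt, they move into the nucleus after insulin. FoxK proteins are known to repress genes of autophagy and catabolism and to support glycolysis and cell growth.

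The 7 libraries held 2606258 to 4455447 reads counted on genes, within the range of 2141460 to 5668270 over all 30 samples, and 14828 to 15969 genes with at least 1 count. Levels are given as CPM (reads of a gene per 1000000 counted reads) on library sizes adjusted by the TMM method, and fold changes as DKD against FoxK2 KD on the log2 scale with their standard error (SE). The typical SE of a gene was 0.14 on the log2 scale. A gene is said to be called where edgeR's quasi-likelihood F test, adjusted by Benjamini-Hochberg over all tested genes, gave an FDR below 0.05. The first principal component of the 7 samples held 22.5% of the variance and did not separate the genotypes.

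The cells kept part of a hepatocyte profile. The nuclear receptor Hnf4a, a master regulator of hepatocyte identity, lay between 137 and 144 CPM, and the keratin genes Krt8 and Krt18 between 706 and 1090 CPM in all 7 samples. In contrast, Alb, the gene of serum albumin, reached only 6.33 to 11.1 CPM, the apolipoprotein gene Apoa1 held 10 counts over the 7 samples, and 4 of 46 hepatocyte markers (Apoc1, Apoc3, Nr0b2 and Cyp7a1) had no count at all. Markers of stellate and endothelial cells were near 0, whereas those of cholangiocytes were not. The 7 cholangiocyte markers summed to 2440 to 2930 CPM in FoxK2 KD and 2180 to 2820 CPM in DKD cells, mostly from Spp1 (means of 1850 and 1700 CPM) and Krt19 (575 and 506 CPM), while Epcam was at 0. The 10 stellate and fibroblast markers summed to at most 0.976 CPM in any of the 7 samples, with 7 of them at 0 including Col1a2 and Pdgfrb, and the 8 endothelial markers to at most 0.55 CPM, with 6 at 0 including Kdr and Cdh5. The 10 macrophage and leukocyte markers summed to 112 to 140 CPM in FoxK2 KD and 98.6 to 123 CPM in DKD cells. Nearly all of this came from the 2 tested members, while Adgre1, Clec4f and Cd3e were at 0. Of these 2, Csf1r had means of 3.21 CPM in FoxK2 KD and 5.6 CPM in DKD cells and was not called.

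The targeted transcripts followed the labels in level. Foxk1 (chromosome 5, positions 142401497 to 142462011 of GRCm38, plus strand) measured 52.5, 50.3, 48.8 and 58.0 CPM in the FoxK2 KD samples and 30.5, 31.3 and 40.9 CPM in the DKD samples. Every DKD sample thus lay below every FoxK2 KD sample, and DKD replicate 3 was the highest of its group. The log2 fold change was -0.60 ± 0.14 (SE), a level 34.0% lower, and its edgeR FDR of 0.0725 missed the threshold. Foxk1 was called in 1 of 7 fits that each left out a sample, at -0.77 with an FDR of 0.0427 without DKD replicate 3, and its FDR rose to 0.555 without DKD replicate 1 and 0.373 without DKD replicate 2. It was called in 4 of 9 other fits, among them DESeq2 on all samples with an FDR of 0.0248.

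Foxk2 was targeted in both groups and measured 63.5, 68.5, 68.9 and 62.0 CPM in FoxK2 KD and 59.0, 66.2 and 67.6 CPM in DKD cells. The groups overlapped, with a log2 fold change of -0.03 ± 0.10 (SE). In Control cells after insulin Foxk2 measured 163 ± 5.66 CPM (SD, n = 3), so that both groups retained part of the transcript. Foxk1 in the same Control cells lay between 49.0 and 57.8 CPM (n = 3), and in FoxK1 KD cells 30.9 ± 3.11 CPM (SD, n = 4), a range of 28.0 to 35.3 that overlapped the DKD range.

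Few genes passed the test. Of 11368 genes, 15 were called (0.132%), 11 higher and 4 lower in DKD than in FoxK2 KD cells, by 1.30-fold to 1.96-fold. The genes called higher included 3 whose products act in or next to insulin and FoxO signalling (Deptor, Inpp5k and Fbxo32), the matrix protein gene Thbs1 and the transporter gene Slc6a18, and the genes called lower were Sprr1a, Aff4, Tgoln1 and Nucks1. All 15 were protein-coding and in all 15 the samples of the groups did not overlap, as was the case for 8.04% of all tested genes. At an FDR below 0.25 there were 48 genes (0.422%), 27 higher and 21 lower. At an unadjusted p below 0.05 there were 365 higher (3.21%) and 289 lower (2.54%). These 654 genes stand beside 568 expected by chance at that p. The number called was sensitive to each sample: it was 2 without DKD replicate 1, 4 without FoxK2 KD replicate 1, and 7 when any one of the other 5 samples was left out. Slc6a18 was called in all 7 of these fits, Aff4 in 6, Thbs1 in 5, Sept4 and Fbxo32 in 4, and Ppbp in 3. Deptor, Bcas3 and Ctsf were called in 2 of 7, and Sprr1a and Dtna in 1. Serpina1a, Inpp5k, Tgoln1 and Nucks1 were called in 0 of 7.

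**Figure D1:**
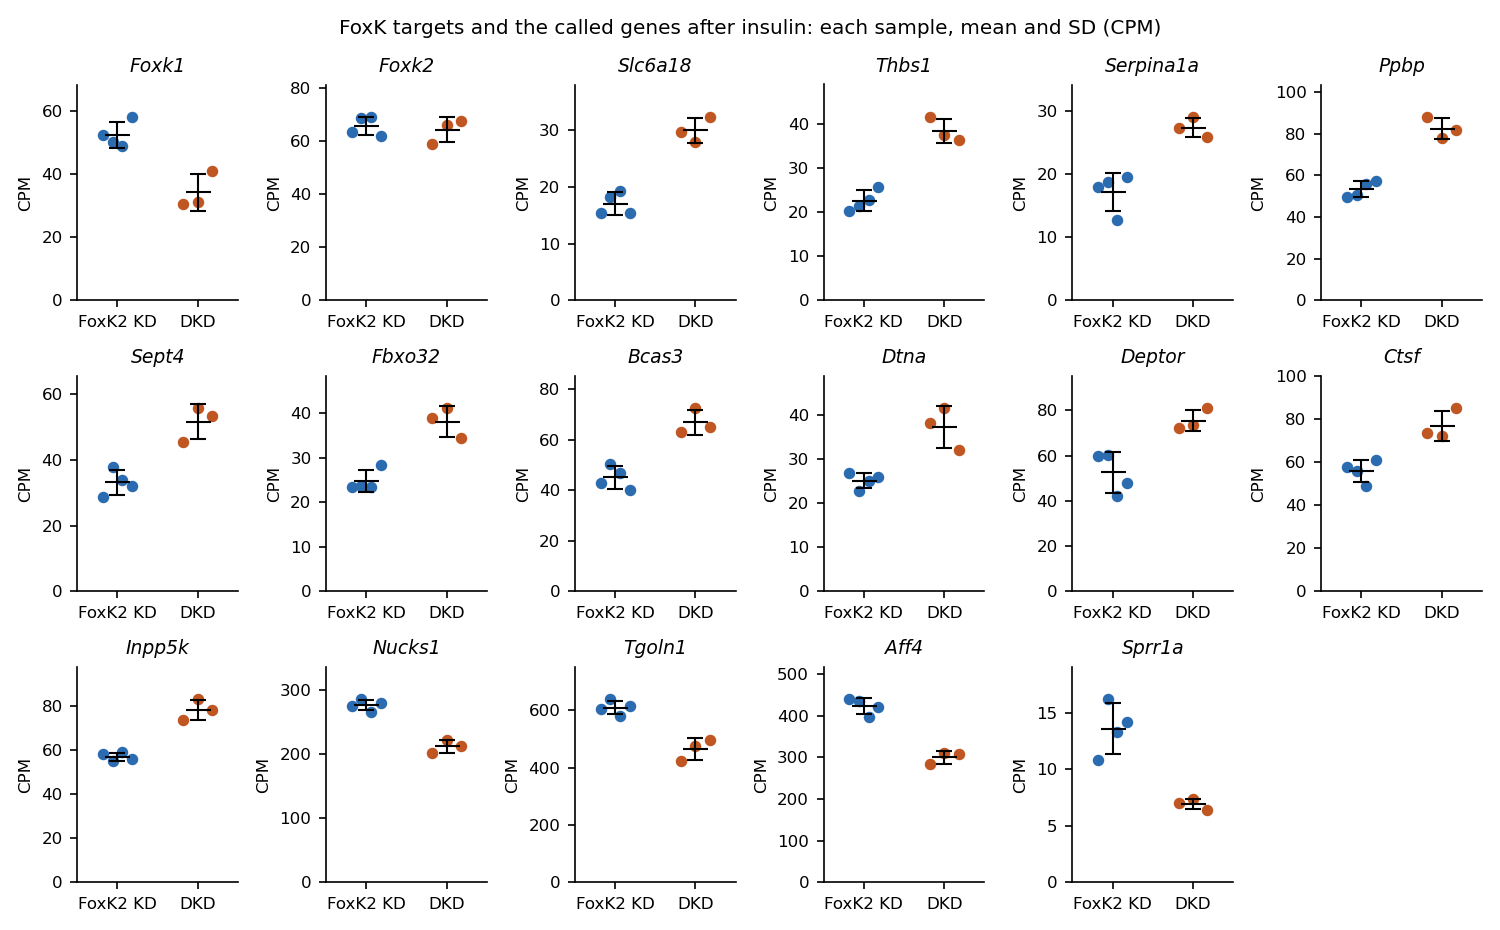
CPM of Foxk1, Foxk2 and the 15 called genes in the 4 FoxK2 KD (blue) and 3 DKD (orange) samples after insulin; points are samples, horizontal lines the mean and bars the SD, and each y axis starts at 0. In every panel but that of Foxk2 the groups are separate, and the Foxk1 level of DKD replicate 3 (40.9 CPM) is the closest to the FoxK2 KD samples.

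Among the genes of insulin signalling, Deptor and Inpp5k were higher in DKD cells. Deptor encodes a protein that binds and inhibits the mTOR kinase. It measured 60.0, 60.5, 42.2 and 47.9 CPM in FoxK2 KD and 72.2, 73.5 and 80.9 CPM in DKD cells. All DKD samples were higher, although the FoxK2 KD samples were spread over a wide range. The log2 fold change of Deptor was 0.52 ± 0.10 (SE), with an edgeR FDR of 0.0187. Inpp5k, a 5-phosphatase that removes the phosphoinositides made by PI3-kinase, measured 58.0, 55.0, 58.9 and 55.8 CPM in FoxK2 KD and 73.7, 82.8 and 78.0 CPM in DKD cells. Its FoxK2 KD samples lay close together and well below DKD, and the log2 fold change was 0.45 ± 0.09 (SE), FDR 0.0202.

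Fbxo32 encodes atrogin-1, a ubiquitin ligase subunit and a textbook FoxO target. It measured 23.4, 23.7, 23.4 and 28.3 CPM in FoxK2 KD and 38.8, 41.0 and 34.3 CPM in DKD cells. The groups were separate, with FoxK2 KD replicate 4 above the other 3 of its group, and the log2 fold change of Fbxo32 was 0.62 ± 0.11 (SE), FDR 0.00845. Of 39 tested insulin signalling genes, Deptor and Inpp5k were the 2 called, both higher, where 0.132% of all tested genes were called. The lists were chosen with earlier results of these data known, so these shares describe the list and are not independent evidence. At an unadjusted p below 0.05 there were 7 members higher and 1 lower (4 higher without DKD replicate 1), against 3.21% and 2.54% of all tested genes. The median log2 fold change of the list was 0.01, beside 0.002 for all tested genes. Of 21 tested FoxO-type fasting genes 1 was called, Fbxo32, and the list median was 0.03.

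Members of the insulin list that did not pass the test included several known to act on receptor signals. Irs2, an insulin receptor substrate, had a log2 fold change of 0.34 ± 0.11 (SE), and Igf1r, the IGF-1 receptor, one of 0.29 ± 0.09 (SE). Pik3ip1, a membrane inhibitor of PI3-kinase, had the highest value at 0.78 ± 0.24 (SE), and the pseudokinase gene Trib3, an ATF4 target that binds Akt, had -0.55 ± 0.15 (SE) with an FDR of 0.187. These 4 were picked after their values were seen. Of 20 tested FoxK partner genes (corepressor subunits, BAP1 complex members and dishevelled proteins) 0 were called by edgeR, beside 0.132% of all tested genes. At an unadjusted p below 0.05 there were 0, where 3.21% of all tested genes were higher and 2.54% lower. The lowest p belonged to Dvl3, with a log2 fold change of 0.31 ± 0.19 (SE).

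Among the 11 genes called higher, Slc6a18 and Thbs1 had the largest fold changes. Thbs1 encodes thrombospondin-1, a secreted matrix glycoprotein that activates latent TGF-beta. It measured 20.3, 21.5, 22.8 and 25.8 CPM in FoxK2 KD and 41.5, 37.5 and 36.3 CPM in DKD cells, 1.71-fold higher. The log2 fold change of Thbs1 was 0.78 ± 0.13 (SE), FDR 0.00601, with no sample of one group near the other. Slc6a18 belongs to a family of sodium-dependent neutral amino acid transporters. It measured 15.4, 18.2, 19.4 and 15.4 CPM in FoxK2 KD and 29.8, 27.9 and 32.3 CPM in DKD cells, 1.77-fold higher. It had, with Aff4, the lowest FDR of the comparison (log2 fold change 0.82 ± 0.13 (SE), FDR 0.00231).

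Serpina1a and Ppbp encode secreted proteins. Serpina1a, an alpha-1-antitrypsin made by hepatocytes, measured 17.9, 18.7, 12.7 and 19.5 CPM in FoxK2 KD and 27.3, 29.0 and 25.9 CPM in DKD cells, with a log2 fold change of 0.66 ± 0.15 (SE) and an FDR of 0.0492. It has near-identical paralogs between which reads can be split, and its neighbour Serpina1b, which was not called, had a log2 fold change of 0.50 ± 0.15 (SE). Ppbp, the gene of a CXC chemokine best known from platelets, measured 49.6, 50.6, 55.8 and 57.3 CPM in FoxK2 KD and 87.8, 77.8 and 81.8 CPM in DKD cells. All 3 DKD samples of Ppbp were above the highest FoxK2 KD sample by a wide margin, with a log2 fold change of 0.64 ± 0.12 (SE), FDR 0.0161.

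The remaining increases were in genes of the cytoskeleton and lysosome and in Bcas3. Sept4, a septin of the GTP-binding cytoskeleton, measured 28.7, 38.0, 34.0 and 32.1 CPM in FoxK2 KD and 45.6, 55.7 and 53.5 CPM in DKD cells (log2 fold change 0.64 ± 0.11 (SE), FDR 0.00791). Dtna, a dystrobrevin of the dystrophin complex, measured 26.7, 22.8, 24.9 and 25.8 CPM in FoxK2 KD and 38.1, 41.4 and 32.1 CPM in DKD cells (0.55 ± 0.12 (SE), FDR 0.0434). The groups did not overlap in either gene. Ctsf, the gene of the lysosomal protease cathepsin F, measured 57.5, 56.1, 48.8 and 61.1 CPM in FoxK2 KD and 73.4, 72.0 and 84.9 CPM in DKD cells (0.46 ± 0.09 (SE), FDR 0.0174). Bcas3, whose product binds phosphoinositides on forming autophagosomes, measured 42.8, 50.6, 47.0 and 40.3 CPM in FoxK2 KD and 63.2, 72.4 and 65.0 CPM in DKD cells (0.56 ± 0.11 (SE), FDR 0.0174). The groups were separate in both.

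The 4 genes called lower in DKD cells included 3 of high level. Aff4, the scaffold of the super elongation complex that releases paused RNA polymerase II, measured 439, 436, 397 and 420 CPM in FoxK2 KD and 283, 311 and 308 CPM in DKD cells, 29.0% lower (log2 fold change -0.49 ± 0.08 (SE), FDR 0.00231). Tgoln1, a membrane protein of the trans-Golgi network, measured 606, 638, 580 and 614 CPM in FoxK2 KD and 422, 475 and 498 CPM in DKD cells (-0.39 ± 0.08 (SE), FDR 0.0394). Nucks1, a chromatin-bound phosphoprotein, measured 275, 285, 266 and 279 CPM in FoxK2 KD and 202, 222 and 213 CPM in DKD cells (-0.38 ± 0.08 (SE), FDR 0.0482). These 3 genes had 6414 counts (Nucks1) to 14142 counts (Tgoln1) over the 7 samples, and the spread within groups was small. Sprr1a, a precursor of the cornified envelope of squamous epithelia, was the least covered, with 274 counts over the 7 samples. It measured 10.8, 16.2, 13.3 and 14.2 CPM in FoxK2 KD and 7.07, 7.35 and 6.41 CPM in DKD cells, 1.96-fold lower (-0.97 ± 0.19 (SE), FDR 0.0187).

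**Figure D2:**
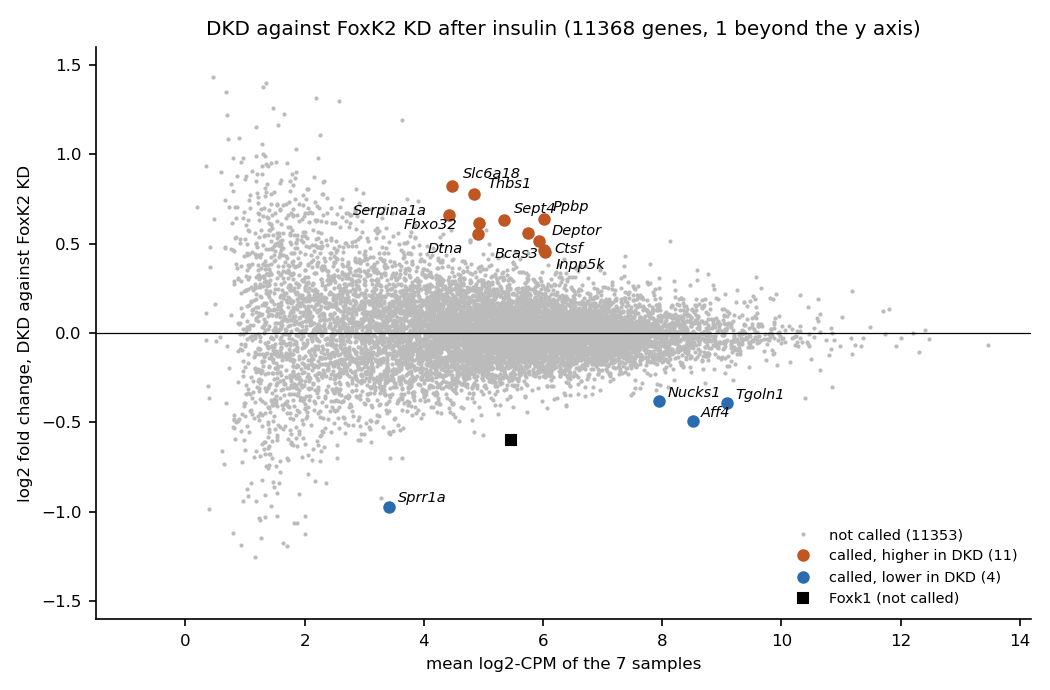
Log2 fold change (DKD against FoxK2 KD after insulin) against the mean log2-CPM of the 7 samples for the 11368 tested genes, with the 11 genes called higher in orange, the 4 called lower in blue and Foxk1 as a black square; 1 gene lies beyond the y axis. The called genes lie at the edge of a cloud centred on 0, and low-level genes spread more widely without being called.

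Of the 15 called genes, 8 share their span with another annotated gene, but those neighbours held at most 5 counts over the 7 samples. In the GRCm38 annotation the called genes were scattered over the genome, with Sept4, Bcas3, Aff4 and Inpp5k on chromosome 11 and Deptor (55112317 to 55259271, plus strand) and Fbxo32 (58175879 to 58214932, minus strand) on chromosome 15.

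Since FoxK factors bind DNA, the windows from 250 bases before to 50 bases after the RefSeq starts (build GRCm38.p6) were read for the forkhead motif GTAAACA or its reverse complement TGTTTAC, and for the shorter core TAAACA or TGTTTA that lies within it. Windows were found for 9 of the 15 called genes. The full motif was in 0 of these 9, and in 3.18% of 8740 tested genes with a window. Only the exact letters of the motif and the core were searched. The paper proposes a FoxK motif in which several letters can vary, for example T in place of the C. Such variants were not searched for, so the 0 does not cover them. The core was in 1 of 5 genes called higher (Serpina1a) and in 0 of 4 called lower, against 10.2% of all tested genes with a window. The 250 bases before the start are shown for that gene and, for contrast, for Aff4, the gene called lower with the lowest FDR and the highest GC content of the 9 upstream windows (79.2%, against 49.2% for Serpina1a). Capitals mark the core, which begins 184 bases before the RefSeq start of Serpina1a, and Aff4 holds none. The bases just after the RefSeq start did not match the beginning of an annotated transcript for either gene. In the GRCm38 annotation Serpina1a starts at 103863562 (minus strand) and Aff4 at 53350833 (plus strand). The distance thus holds for the RefSeq start only. Serpina1a is at chr12:103863620-103863869 (minus strand) and Aff4 at chr11:53350517-53350766 (plus strand).
Serpina1a: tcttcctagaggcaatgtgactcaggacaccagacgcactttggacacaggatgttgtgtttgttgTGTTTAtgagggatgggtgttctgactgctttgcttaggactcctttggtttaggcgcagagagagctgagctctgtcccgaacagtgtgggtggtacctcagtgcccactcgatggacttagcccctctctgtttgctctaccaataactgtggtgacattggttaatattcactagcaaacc
Aff4: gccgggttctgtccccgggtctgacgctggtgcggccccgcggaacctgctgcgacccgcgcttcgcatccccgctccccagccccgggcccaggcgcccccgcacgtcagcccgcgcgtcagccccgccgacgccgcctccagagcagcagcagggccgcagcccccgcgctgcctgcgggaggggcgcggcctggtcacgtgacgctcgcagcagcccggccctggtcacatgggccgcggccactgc
In genes at an FDR below 0.25 the core was in 5 of 17 with a window among those higher in DKD (Dab2, Serpina1a, Sertad4, Sparc and Wdr45) and in 1 of 17 among those lower (Trib3). These matches are letters in a window and were not tested for binding.

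The cell division genes leaned to lower levels in DKD cells, without any single gene being called, where 0.132% of all tested genes were. The summed level of 65 tested genes of mitosis was 5522, 5487, 6085 and 5928 CPM in the FoxK2 KD samples and 5162, 5063 and 4828 CPM in the DKD samples, which did not overlap. Of these genes 64 had a log2 fold change below 0, with a median of -0.21, and 0 were called by edgeR, while 21 had an unadjusted p below 0.05, all lower in DKD, against a background of 2.54%. Without FoxK2 KD replicate 3, the sample with the highest sum, that number was 11. The smallest p of the list belonged to Espl1, the gene of separase, which cleaves cohesin at anaphase. It measured 96.1, 85.3, 97.7 and 93.2 CPM in FoxK2 KD and 76.3, 68.1 and 67.0 CPM in DKD cells, with a log2 fold change of -0.40 ± 0.10 (SE) and an FDR of 0.156. In bulk samples fewer dividing cells and less of these transcripts per cell cannot be told apart.

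A similar lean was seen in 53 tested genes of DNA replication and S phase. Their summed level was 4972, 4889, 5529 and 5212 CPM in FoxK2 KD and 4859, 4586 and 4502 CPM in DKD cells, again without overlap, although DKD replicate 1 came close to the lowest FoxK2 KD sample. Of these genes 49 were below 0, the median log2 fold change was -0.17, 0 were called, and 9 had an unadjusted p below 0.05, all lower, against 2.54% of all genes; this was 4 without FoxK2 KD replicate 3. Rrm2, the small subunit of ribonucleotide reductase, had the smallest p and a log2 fold change of -0.32 ± 0.09 (SE), FDR 0.336. Of 23 tested G1 cyclins and CDK inhibitors 16 were above 0 with a median of 0.05, and 0 were called. At an unadjusted p below 0.05 there were 3 higher and 1 lower, against 3.21% and 2.54% of all genes. The smallest p of that list was that of E2f3, a transcription factor of S-phase entry, which measured 37.5, 41.0, 42.2 and 41.3 CPM in FoxK2 KD and 33.7, 32.5 and 32.3 CPM in DKD cells. Its DKD samples were all lower, with a log2 fold change of -0.30 ± 0.12 (SE) and an FDR of 0.711, while cyclin D1 (Ccnd1) had 0.17 ± 0.08 (SE). Of 42 genes of apoptosis and p53 targets 0 were called, with a median of 0.03, and of all tested genes 0.132% were called.

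**Figure D3:**
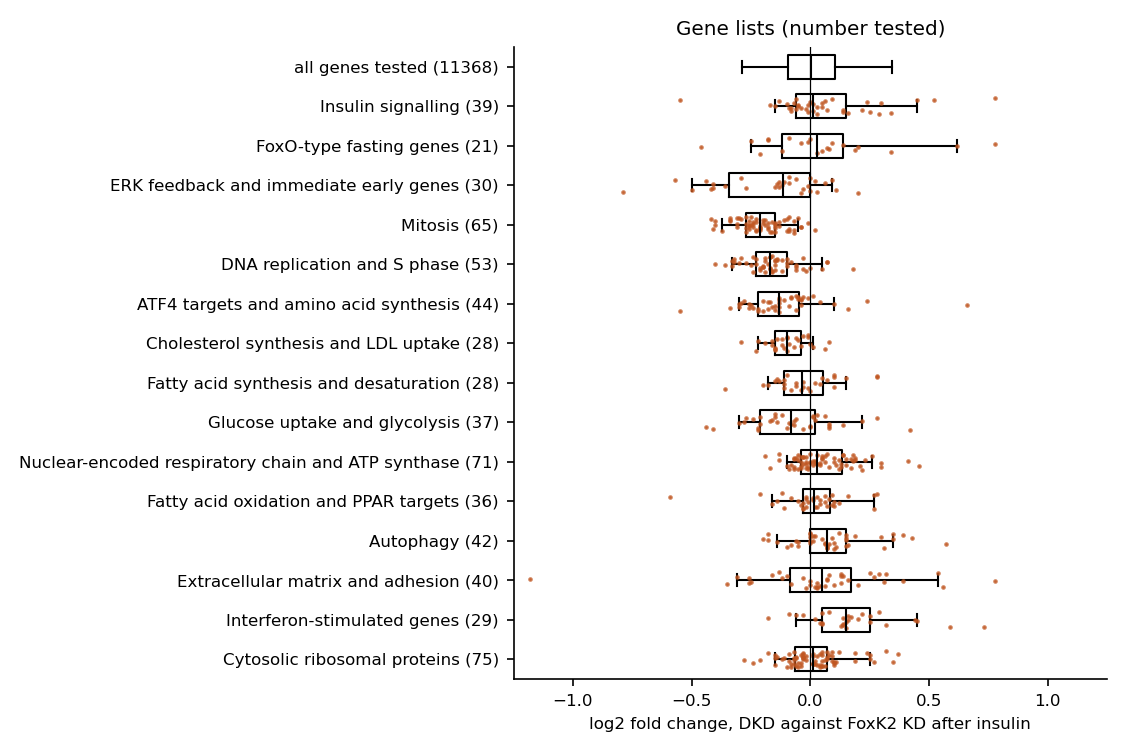
Log2 fold changes (DKD against FoxK2 KD after insulin) of the tested genes of 15 lists and of all tested genes; boxes span the quartiles with the median as a line, whiskers the 5th to 95th percentile, and points are genes. Mitosis (median -0.21), DNA replication (-0.17) and ATF4 targets (-0.13) lie to the left of all tested genes (0.002), and interferon-stimulated genes (0.15) to the right.

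Among genes of growth-factor response, 24 of 30 tested ERK feedback and immediate early genes were below 0, with a median of -0.11. Of the 30, 0 were called, beside 0.132% of all tested genes. At an unadjusted p below 0.05 there were 6, all lower, against 2.54% of all genes. Atf3, a stress-induced bZIP factor, measured 36.4, 32.7, 42.8 and 39.4 CPM in FoxK2 KD and 24.9, 19.7 and 30.1 CPM in DKD cells, with a log2 fold change of -0.57 ± 0.14 (SE) and an FDR of 0.131. Without DKD replicate 1 the list held 2 genes at this p in place of 6. Of 44 tested ATF4 targets and amino acid synthesis genes 38 were below 0 with a median of -0.13, 0 were called, and 8 were lower at an unadjusted p below 0.05, against the same 2.54%, or 4 without DKD replicate 2 and 5 without FoxK2 KD replicate 2 or 3. Trib3, named above, had the smallest p of that list. The list of 30 tested ER chaperone and unfolded protein response genes had a median of -0.05 and 0 called; the oxidoreductase gene Ero1l, which forms disulfide bonds in the ER, measured 129, 131, 122 and 118 CPM in FoxK2 KD and 97.8, 91.3 and 106 CPM in DKD cells (-0.34 ± 0.08 (SE), FDR 0.131).

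Metabolic lists held no called gene, which is near the 0.132% called among all tested genes. Of 37 tested genes of glucose uptake and glycolysis 5 were lower and 1 higher at an unadjusted p below 0.05, against 2.54% and 3.21% of all genes, with a list median of -0.08. Hk2, the insulin-responsive hexokinase that traps glucose as glucose-6-phosphate, measured 49.8, 52.5, 48.2 and 50.1 CPM in FoxK2 KD and 37.3, 37.5 and 38.0 CPM in DKD cells. Its groups were tight and separate, yet the log2 fold change of -0.41 ± 0.11 (SE) had an FDR of 0.187. Pfkp, the platelet-type phosphofructokinase and chosen after its value was seen, had -0.44 ± 0.12 (SE).

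Lipid synthesis was similar. Scd1, the stearoyl-CoA desaturase that makes monounsaturated fatty acids, measured 1456, 1540, 1482 and 1555 CPM in FoxK2 KD and 1122, 1258 and 1144 CPM in DKD cells. The groups did not overlap and the log2 fold change of Scd1 was -0.36 ± 0.08 (SE), FDR 0.0763 in edgeR. Scd1 was called in 3 of 9 other fits, the lowest FDR being 0.00351 in DESeq2. It was called in 0 of 7 fits that each left out a sample, with an edgeR FDR of 0.555 without DKD replicate 1. Of 28 tested genes of fatty acid synthesis and desaturation 1 was lower and 1 higher at an unadjusted p below 0.05. Of all tested genes 2.54% were lower and 3.21% higher at this p. Of 28 tested genes of cholesterol synthesis and LDL uptake 24 were below 0 with a median of -0.10 and 5 lower at an unadjusted p below 0.05, where 2.54% of all genes were, led by Hsd17b7, a sterol ketoreductase, at -0.29 ± 0.08 (SE). This number was 1 without FoxK2 KD replicate 3 or DKD replicate 1, 2 without FoxK2 KD replicate 4 or DKD replicate 2, and 3 without FoxK2 KD replicate 2.

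Mitochondrial lists held no called gene either, again near the 0.132% called among all tested genes. The 71 tested nuclear genes of the respiratory chain and ATP synthase had a median log2 fold change of 0.03 with 0 called, and the smallest p was that of Ndufb7, a complex I subunit, at 0.46 ± 0.22 (SE), where the groups overlapped. The 24 genes of the TCA cycle had a median of -0.01, and the 36 genes of fatty acid oxidation and PPAR targets one of 0.02, each with 0 called. The 13 mitochondrially encoded genes had a median of 0.13, which ran from -0.16 to 0.23 when the fit or the samples were changed.

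The autophagy list, 42 genes, had 0 called, beside 0.132% of all tested genes, and a median of 0.07. At an unadjusted p below 0.05 it held 5 genes higher and 1 lower, with a background of 3.21% higher and 2.54% lower. Wdr45, which binds phosphoinositides on the growing autophagosome, measured 25.6, 26.7, 33.4 and 25.8 CPM in FoxK2 KD and 52.7, 39.9 and 31.6 CPM in DKD cells, so that DKD replicate 3 lay among the FoxK2 KD samples (0.57 ± 0.15 (SE), FDR 0.204). Without that sample the list held 3 genes higher at this p. Of 38 lysosomal and vacuolar ATPase genes 1 was called, Ctsf, beside 0.132% of all tested genes, and the median was 0.05. The 40 tested genes of extracellular matrix and adhesion held Thbs1 as the one called gene, 8 higher and 2 lower at an unadjusted p below 0.05, and a median of 0.05. Over all tested genes 0.132% were called, while 3.21% were higher and 2.54% lower at this p. The number of matrix genes lower was 4 without FoxK2 KD replicate 2. Sparc, a collagen-binding matrix protein, had 0.31 ± 0.08 (SE) and the collagenase gene Mmp13 had -1.18 ± 0.37 (SE); both were chosen after their values were seen.

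Of 29 tested interferon-stimulated genes 25 were above 0 with a median of 0.15, and 0 were called, beside 0.132% of all tested genes. Ifit3, an antiviral protein gene of low level, measured 4.63, 4.95, 7.58 and 5.98 CPM in FoxK2 KD and 11.2, 8.51 and 8.40 CPM in DKD cells (0.73 ± 0.22 (SE), FDR 0.405), and its near-copy Ifit3b can share reads with it. In 32 genes of chemokines, NF-kB feedback and adhesion the median was -0.02 with 0 called, and Vcam1, a leukocyte adhesion receptor, had -0.31 ± 0.09 (SE), FDR 0.247. The 41 tested genes of glutathione and NRF2 targets (median 0.01, led by Gstm2 at 0.54 ± 0.15 (SE)), the 17 clock genes (0.00, Bhlhe40 at -0.17 ± 0.07 (SE)), the 16 other forkhead factors (-0.03, Foxa1 at 0.44 ± 0.15 (SE)) and the 75 cytosolic ribosomal proteins (0.01) held 0 called genes. The cholangiocyte markers had 0 of 6 called and the macrophage and leukocyte markers 0 of 2.

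A list of 33 genes was taken from those that the study's text names, leaving out, among others, most of its mitochondrial genes, and 22 of them were tested here. The study chose them on these samples, so their directions are not independent evidence. Aff4 and Tgoln1 were the 2 called, both lower, where 0.132% of all tested genes were called. Of all tested genes 3.21% were higher and 2.54% lower at an unadjusted p below 0.05, and a further 9 genes of this list had such a p. Of these, 5 had values above 0, from 0.17 (Ccnd1) through Adgrg1, Sgk1 and Alpl to 0.57 (Wdr45), and 4 below 0, namely Vcam1, Scd1, Hk2 and Dusp5, an ERK phosphatase gene with 98 counts over the 7 samples and -0.79 ± 0.32 (SE). The other 11 tested genes lay between -0.30 (Slc7a11) and 0.13 (Mcam), among them Mfn2 and Letm1 of the mitochondrial membranes at 0.05 ± 0.09 and -0.04 ± 0.09 (SE).

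The same question was put to samples in which FoxK2 was not depleted. FoxK1 KD against Control after insulin shares no sample with DKD against FoxK2 KD after insulin, and called 408 genes (3.59%), 212 higher and 196 lower, or 230 without Control replicate 1, 264 without FoxK1 KD replicate 2 and 227 without FoxK1 KD replicate 4. Foxk1 had a log2 fold change of -0.78 ± 0.14 (SE) there, FDR 0.000987. Of the 15 genes called in DKD against FoxK2 KD, all 15 had the same sign in FoxK1 KD against Control and 13 (86.7%) were called there, which was 3.19% of its 408. The 2 not called there were Ppbp at 0.22 ± 0.12 (SE) and Dtna at 0.23 ± 0.14 (SE). Of the 48 genes at an FDR below 0.25, 47 had the same sign.

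The lists were also read in the other direction. Of the 212 genes called higher in FoxK1 KD against Control, 191 (90.1%) were higher in DKD than in FoxK2 KD cells the median of their log2 fold changes being 0.24, and 90 (42.5%) had an unadjusted p below 0.05 in that direction, against 3.21% of all genes. Of the 196 called lower, 182 (92.9%) were lower, with a median of -0.15. In that direction 56 (28.6%) had an unadjusted p below 0.05, against 2.54%. Among all tested genes 5760 were higher and 5608 lower in DKD than in FoxK2 KD cells. Over all 11368 genes the log2 fold changes of the 2 comparisons had a Pearson r of 0.27 and a Spearman rho of 0.33, a description across genes, which are not independent replicates.

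**Figure D4:**
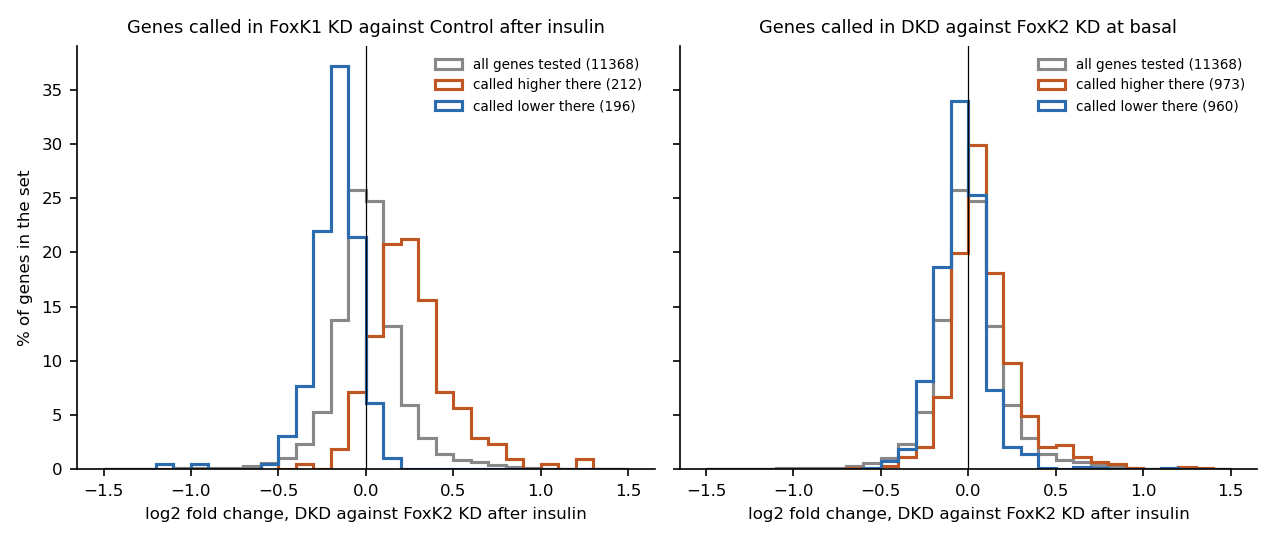
Distribution of log2 fold changes in DKD against FoxK2 KD after insulin (x axis), as a percentage of each gene set in bins of 0.1 with values beyond 1.5 placed in the end bins, for all tested genes (grey) and genes called higher (orange) or lower (blue) in FoxK1 KD against Control after insulin (left) and in DKD against FoxK2 KD at basal (right). The left sets have medians of 0.24 and -0.15, and the right sets of 0.07 and -0.04.

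Estimated sizes were unequal between these comparisons for several genes, picked after their values were seen, but none of the differences passed the test. Slc6a18 rose by 1.40 ± 0.14 (SE) on the log2 scale in FoxK1 KD against Control (FDR 5.74e-08), Thbs1 by 1.59 ± 0.14 (SE), Serpina1a by 1.30 ± 0.17 (SE) and Sept4 by 1.22 ± 0.12 (SE), against 0.64 to 0.82 in DKD against FoxK2 KD. Sprr1a fell by 1.83 ± 0.20 (SE), against 0.97. Ppbp and Dtna went the other way, with 0.22 ± 0.12 and 0.23 ± 0.14 (SE) there, against 0.64 and 0.55. Of the 15 called genes, 9 had the larger absolute change in FoxK1 KD against Control. In contrast Deptor, Inpp5k, Ctsf, Fbxo32 and Nucks1 had nearly equal values in both, for example 0.51 and 0.52 for Deptor. The contrast of the 2 comparisons (DKD minus FoxK2 KD, less FoxK1 KD minus Control, all after insulin) called 0 of 11368 genes in edgeR, DESeq2 and limma-voom. In edgeR 575 genes had an unadjusted p below 0.05, where 568 were expected by chance. For Thbs1 this difference was -0.81 ± 0.19 (SE) with an FDR of 0.405, for Slc6a18 -0.58 ± 0.20 (SE) with an FDR of 0.874, and for Sprr1a 0.86 ± 0.28 (SE) with an FDR of 0.874. For Ppbp it was 0.42 ± 0.17 (SE) with an FDR of 0.924, and for Deptor 0.01 ± 0.16 (SE). The typical SE of this contrast was 0.203, so that differences of moderate size were not detectable at this depth and number of samples.

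The gene lists read in FoxK1 KD against Control had medians of -0.24 for mitosis, with 6 of 65 genes called, all lower, -0.22 for DNA replication with 4 of 53 called lower, -0.21 for ATF4 targets with 5 of 44, -0.22 for cholesterol synthesis with 8 of 28, and -0.16 for glycolysis with 7 of 37. Of all tested genes 1.72% were called lower there. The matching medians in DKD against FoxK2 KD, given above, had the same sign in each of these lists.

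**Figure D5:**
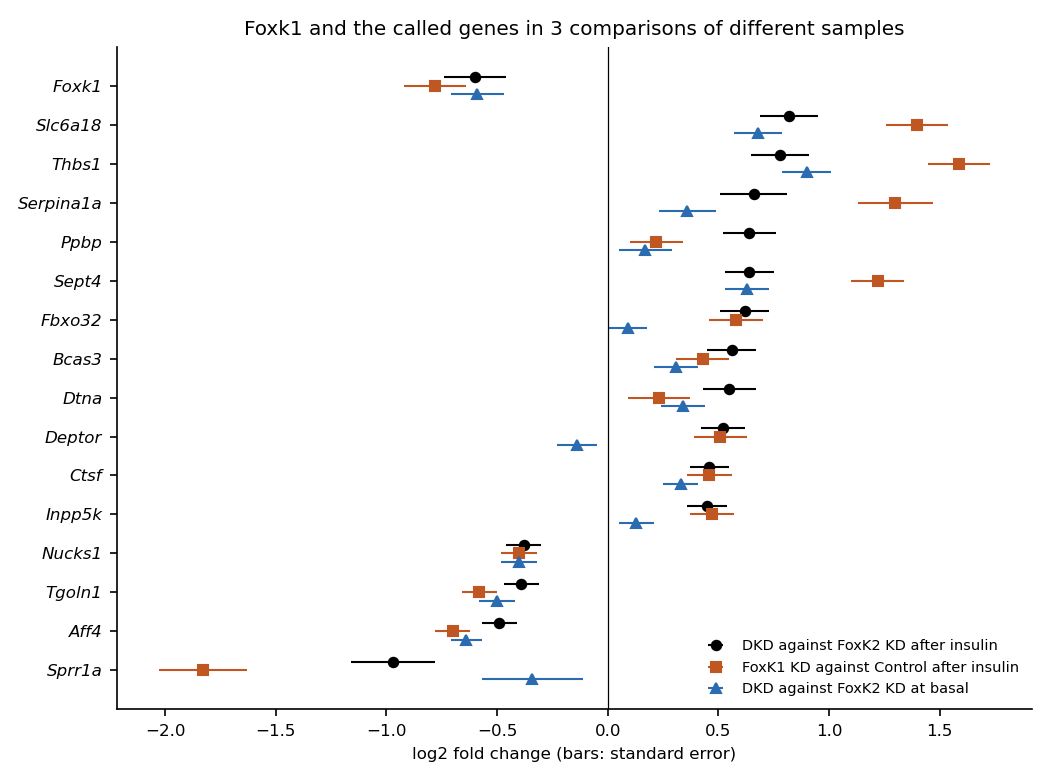
Log2 fold change with its SE of Foxk1 and the 15 called genes in DKD against FoxK2 KD after insulin (black circles), FoxK1 KD against Control after insulin (orange squares) and DKD against FoxK2 KD at basal (blue triangles), which share no samples. Directions match in all but Deptor at basal (-0.14). Thbs1, Slc6a18, Serpina1a, Sept4 and Sprr1a lie farther from 0 in FoxK1 KD against Control, whereas Ppbp and Dtna lie closer to 0 there.

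Without insulin the same genotypes differed at many more genes. DKD against FoxK2 KD at basal called 1933 genes (17.0%), 973 higher and 960 lower, or 1214 without FoxK2 KD basal replicate 1 and 1053 without DKD basal replicate 1. Of the 15 genes called after insulin 14 had the same sign at basal and 9 (60.0%) were called, which was 0.466% of the 1933. Slc6a18, Thbs1, Sept4, Bcas3, Ctsf, Dtna, Aff4, Tgoln1 and Nucks1 were these 9, with for example Thbs1 at 0.90 ± 0.11 (SE) and Aff4 at -0.64 ± 0.07 (SE). Of the basal genes called higher 69.9% were also higher after insulin, with a median of 0.07. In that direction 10.7% had an unadjusted p below 0.05, against 3.21% of all genes. Of the basal genes called lower 63.4% were lower, with a median of -0.04, and 5.42% had such a p, against 2.54%. Among all 11368 tested genes 5760 were higher and 5608 lower after insulin. The basal difference moved with GC content: the rank correlation of a gene's log2 fold change with its GC content was 0.57 at basal, 0.07 after insulin and 0.16 in FoxK1 KD against Control. Over 10 bins of genes ordered by GC content the median log2 fold change ran from -0.256 to 0.27 at basal and from -0.006 to 0.025 after insulin. When trends on GC content and length were removed, edgeR called 900 genes at basal and 23 after insulin.

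By their labels the basal samples are at 0 h and the insulin samples at 6 h, while the paper describes vehicle for 6 h. Where the labels hold, insulin and time cannot be told apart. Whether the genotype difference itself differed between insulin and basal samples was tested by the difference of the 2 comparisons. It was called for 117 genes (1.03%), 69 higher after insulin than at basal and 48 lower, and 116 of these were called at basal, 1 after insulin and 15 were pseudogenes. Its rank correlation with GC content was -0.49, and 38 genes were called once GC content and length were taken out. Leaving out one sample gave 30 (without DKD insulin replicate 2) to 163 genes. The counts were 62 and 63 without FoxK2 KD basal replicates 1 and 4, 50 and 68 without DKD basal replicates 1 and 2, and 55 without FoxK2 KD insulin replicate 1 or replicate 3.

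Deptor was the gene called both in DKD against FoxK2 KD after insulin and in this difference. At basal it measured 125 ± 5.36 CPM in FoxK2 KD and 113 ± 2.88 CPM in DKD cells (SD, n = 4 each), a log2 fold change of -0.14 ± 0.09 (SE). After insulin it measured 52.6 ± 9.09 CPM (SD, n = 4) and 75.5 ± 4.69 CPM (SD, n = 3). Its genotype difference was thus 0.66 ± 0.14 (SE) higher after insulin, FDR 0.0115. The genes with the smallest p in this contrast were called at basal and not after insulin. Ccl2, a monocyte chemokine gene, measured 1738 ± 72.1 CPM in FoxK2 KD and 754 ± 64.8 CPM in DKD cells at basal (SD, n = 4 each), but 883 ± 139 (SD, n = 4) and 846 ± 105 CPM (SD, n = 3) after insulin. Kdm6a, a histone H3 lysine demethylase gene, measured 164 ± 16.5 and 82.9 ± 6.78 CPM at basal (SD, n = 4 each) and 99.3 ± 4.47 (SD, n = 4) and 105 ± 5.25 CPM (SD, n = 3) after insulin. The predicted gene Gm42939 had 0 CPM in all 4 FoxK2 KD basal samples and 9.74 ± 3.64 CPM in DKD basal samples (SD, n = 4), and 10.2 ± 3.74 (SD, n = 4) and 9.94 ± 1.91 CPM (SD, n = 3) after insulin. It was likewise at or near 0 in basal Control (0.0709 ± 0.142 CPM; SD, n = 4) and basal FoxK1 KD cells.

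Described for this contrast were 6 genes, the 3 with the smallest p in either direction. In each, the basal DKD mean lay apart from the other 3 basal groups, on the side of the insulin groups. The contrast holds DKD and FoxK2 KD at basal and after insulin, so choosing genes by its p favours such a pattern. For Ccl2 the other basal groups had means of 1363 to 1738 CPM and the 4 insulin groups of 846 to 902 CPM, and for Kdm6a these were 144 to 164 and 96.3 to 105 CPM. Skp1a, a subunit of SCF ubiquitin ligases, had 328 CPM in basal DKD cells, against 465 to 481 in the other basal groups and 344 to 397 after insulin. The splicing repressor gene Ptbp1 had 494 CPM, against 329 to 359 and 419 to 490, and the predicted gene Gm43712 had 10.2 CPM, against 1.39 to 1.98 and 4.82 to 6.42. Deptor differed from these. Its basal DKD mean of 113 CPM lay within the 103 to 125 CPM of the other basal groups. It was above the 37.5 to 75.5 CPM after insulin. For Vcam1, also called in this contrast, the basal DKD mean of 158 CPM lay near that of basal FoxK1 KD cells (144 CPM). Basal Control and FoxK2 KD cells had Vcam1 means of 296 and 301 CPM. The labels give no preparation batch, so for the 1933 genes at basal and the 117 of the interaction the genotype and the preparation of the basal DKD samples cannot be told apart.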

How the data were processed

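RNA from 30 AML12 samples was sequenced as poly(A) libraries on an Illumina HiSeq instrument. The authors deposited raw counts, whole numbers of reads per gene and sample without normalization; the submitters' processing notes name CASAVA 1.8, STAR 2.4.2a, featureCounts and the build GRCm38.p4, and whether counting used strand is not given in the sources used here. Of 49089 identifiers, 48435 were found in GENCODE M21 (GRCm38), which gave symbols, coordinates, GC content and length.

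Groups came from the labels. Genes were kept by edgeR's filterByExpr (11368), scaled by TMM and fitted in 1 model of 8 groups (edgeR 4.0.16, glmQLFit and glmQLFTest, limma 3.58.1, DESeq2 1.42.0 and R 4.3.3), with Benjamini-Hochberg adjustment. The study used limma; limma-voom was an alternative. SEs were set so that a fold change over its SE equals the square root of F. log2-CPM used a prior count of 2. Named genes were Foxk1, Foxk2, the 8 protein-coding genes per direction with the largest change and the 6 with the smallest p among called genes whose groups did not overlap and whose mean log2-CPM was 1 or more, up to 4 called genes or the smallest p of each of 32 lists, the genes the study names, and 3 per direction from each interaction. The comparison, the members and the lists were chosen with earlier results of these data known. Scripts were tested on simulated data. No 2 samples of a compared group agreed within sampling noise (9 pairs, chi-square per degree of freedom 1.95 or more). Counting error is included in the SE, and no interval beyond it is given. Promoter windows came from RefSeq (GRCm38.p6).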

Additional observations from a re-analysis of the deposited data

Results flagged for a closer look

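In the 4 FoxK2 KD samples after insulin, 3 of 62 named genes had a sample far from the others. Fbxo32 measured 28.3 CPM in replicate 4 against 23.4 to 23.7 in the rest, Wdr45 33.4 CPM in replicate 3 against 25.6 to 26.7, and Sgk1 50.3 CPM in replicate 2 against 39.4 to 40.6. About 1 in 20 such groups is marked by chance, and the 3 samples were different ones.

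The genotype difference between DKD and FoxK2 KD cells differed between insulin and basal at 117 genes in the edgeR interaction test. Among named genes it was 0.66 for Deptor, 0.62 for Vcam1, 1.05 for Kdm6a, 1.14 for Ccl2 and 0.68 for Skp1a, a subunit of SCF ubiquitin ligases, all on the log2 scale and higher after insulin. It was -0.51 for Letm1, -0.58 for the splicing repressor gene Ptbp1, -2.83 for the predicted gene Gm43712 and -8.12 for Gm42939. The last value depends on the prior count, because Gm42939 was at 0 in all FoxK2 KD basal samples.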

How the results depend on the processing

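Directions of the 15 called genes held under 9 other fits and 7 fits that each left out a sample. The number called in DKD against FoxK2 KD after insulin was 48 at an FDR below 0.25, 7 at an FDR below 0.05 and a change beyond 1.5-fold, 23 with GC content and length taken out (14 of the 15 among them) and 4 with only the 7 samples fitted. It was 22 in DESeq2 and 15 in limma-voom, and 2 to 7 when a sample was left out. The basal comparison called 900 genes with GC content and length taken out, an alternative chosen after seeing the data, and 1053 to 1873 without a sample. The difference between insulin and basal called 220 genes in DESeq2, 38 with GC content and length taken out, and 30 to 163 without a sample. FoxK1 KD against Control called 227 to 315 genes without a sample. The difference between it and DKD against FoxK2 KD called 0 in every fit run. Foxk1 stayed between -0.77 and -0.51 without a sample, and was called at -0.61 in DESeq2 and at -0.60 with all genes of at least 1 count, with GC content and length taken out, and with only the 4 insulin groups. Foxk2 ran from -0.08 to 0.03 without a sample, the last without DKD replicate 1. The cause of these changes was not tested.

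Same-numbered samples of the groups did not deviate together (3 pairs, correlations -0.108 to 0.047; 9 other pairs, -0.158 to 0.175), so the replicate numbers were not taken as pairs. A fit with the replicate block called 10 genes after insulin, all among the 15, 1812 at basal, 124 in the difference and 331 in FoxK1 KD against Control, and gave Foxk1 -0.58 and Foxk2 -0.06. With totals of 2606258 to 4455447 counts, genes of a few CPM had large errors, and small changes in them were not detectable.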
